A study of Mus musculus with 2 samples.

Results

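The genes described here encode the proteins that find introns and join exons: the SR proteins, the hnRNPs, the subunits of SF3a, SF3b and U2AF, the PRPF proteins of the spliceosome, and the RNA helicases of the DDX39 group. They were chosen by symbol, as the genes whose symbol begins with Srsf, Hnrnp, Sf3a, Sf3b, U2af, Prpf or Ddx39 and that have a probe set with no other symbol. This rule was set with earlier results of these data known, and 55 of the 22180 genes on the array met it. They comprise 19 hnRNP genes, 12 Prpf genes, 10 SR protein genes, 6 Sf3b genes, 3 Sf3a genes, 3 U2af genes and 2 Ddx39 genes. Where a gene had several probe sets, the one with the highest mean over both samples stands for it.

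Total RNA of 2 samples of mouse embryonic stem cells of the Niwa line was measured on an Affymetrix expression array. The sample called EWS-OCT4A-GFP, the fusion line below, is a stable line expressing a fusion of EWS, an RNA-binding protein of the FET family, with OCT4A, the pluripotency form of OCT4, and GFP (whether as a tag is not stated), and the sample called GFP is the stable control line. Both lines were grown with LIF and were given doxycycline (1 µg/ml), which turns down their own OCT-4, so both groups are cells in which that gene was turned down. The promoter of the transgene, whether a line is 1 clone, and the length of the treatment are not given in the sources used here. Each group has 1 sample, so no difference below has a replicate check and no p-value is given. Values are log2 levels as deposited, and a difference is fusion line minus control line. A floor was set at 4.10, the median over both columns, and a gene counts as measured above it when the higher of its values reaches it.

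The labelled cell type was set against marker genes. All 10 pluripotency markers read higher in the EWS-OCT4A-GFP sample, and their summed linear level was 7408 there against 518 in the GFP control. All 11 trophectoderm markers read lower, with a summed linear level of 407 against 6903, and Krt8 and Krt18, epithelial keratins, were at 10.99 and 10.71 in the GFP control. The GFP control therefore carried high levels of some trophectoderm markers, such as Gata2 at 9.73, but not of all. There Cdx2, Eomes, Hand1 and Elf5 read 6.09, 6.16, 5.85 and 4.44, and Cdx2 differed by only -0.55. Markers of its label read lower in it than in the EWS-OCT4A-GFP sample, such as Nanog at 5.94 beside 10.55. Of 14 proliferation genes, 13 read higher in the EWS-OCT4A-GFP sample (92.9%, beside 51.2% of all genes at or above the floor). Their summed linear level over all 14 was 6965 against 3591. The lower one was Myc at 7.37 and 8.33, a difference of -0.96, and Mki67 and Cdk1 differed by only 0.23 and 0.36. Of 8 primitive endoderm markers that reached the floor 4 were at least 2-fold lower and 1 higher (summed levels 367 and 477). The higher one was Lama1, with a difference of 2.86, and 6 of the 8 were below 0. Of 7 fibroblast markers, which would show feeder cells, 2 were at least 2-fold lower and 1 higher (620 and 389). The higher one was Vim at 8.89 and 6.75, and 4 of the 7 were below 0. The fibroblast sum was higher in the EWS-OCT4A-GFP sample through Vim alone, and Lama1 narrowed the gap between the endoderm sums. The fusion-line value of Postn, a fibroblast marker that differed by -4.04, lies under the floor, so its size is uncertain. No marker was at 0 in either sample. The part of these shifts in the results below was not tested, and in RNA from whole cultures fewer cells of a type and less RNA per cell cannot be told apart.

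Pre-mRNA splicing is carried out by the spliceosome, a machine assembled anew on each intron from small nuclear ribonucleoproteins (snRNPs) and further proteins. The U2AF heterodimer reads the end of the intron, SF3a and SF3b place the U2 snRNP on the branch point, and PRPF proteins drive the later rearrangements. SR proteins mostly favour the use of the exons they bind, and hnRNPs often oppose it or package the transcript, so the balance between them sets alternative exons. Many of these genes are known for high expression in rapidly dividing cells, embryonic stem cells among them, and many SR protein and hnRNP genes limit their own mRNA through exons that trigger its decay.

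Across the 55 genes, small differences in one direction prevailed. Among the 52 that reached the floor, 44 had a difference above 0 and 8 below, a share of 84.6% above 0, beside 51.2% of the 13516 array genes that reached it. The median difference was 0.39, beside 0.03 for all those genes. Few of the differences were large. A size of at least 2-fold in the higher direction was reached by 4 genes (7.69%), beside 9.31% of all genes, so that share is near the background and says nothing about splicing genes. At least 1.5-fold higher were 16 genes (30.8%), beside 20.0% of all genes. This count depends on the scaling: with loess centring it was 10 genes (19.2%), beside 17.2% of all genes, with 2 genes at 2-fold and a median of 0.27 beside -0.04. None was 1.5-fold lower, beside 20.6%, and none was 2-fold lower, beside 11.9%. The middle 50% of the differences ran from 0.14 to 0.63 for these genes and from -0.46 to 0.46 for all genes, and the lowest and highest were -0.42 and 1.19. Among genes with a mean level of at least 6, a comparison added after the data were seen, 42 of 50 splicing genes (84.0%) were above 0, beside 52.1% of 6228 genes, and 30.0% were at least 1.5-fold higher, beside 21.6%. The 3 genes under the floor were Srsf12, the pseudogene Hnrnpa1l2-ps2 and Sf3b4, which encodes an RNA-binding subunit of SF3b, and Sf3b4 read only 2.77 and 2.63.

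**Figure D1:**
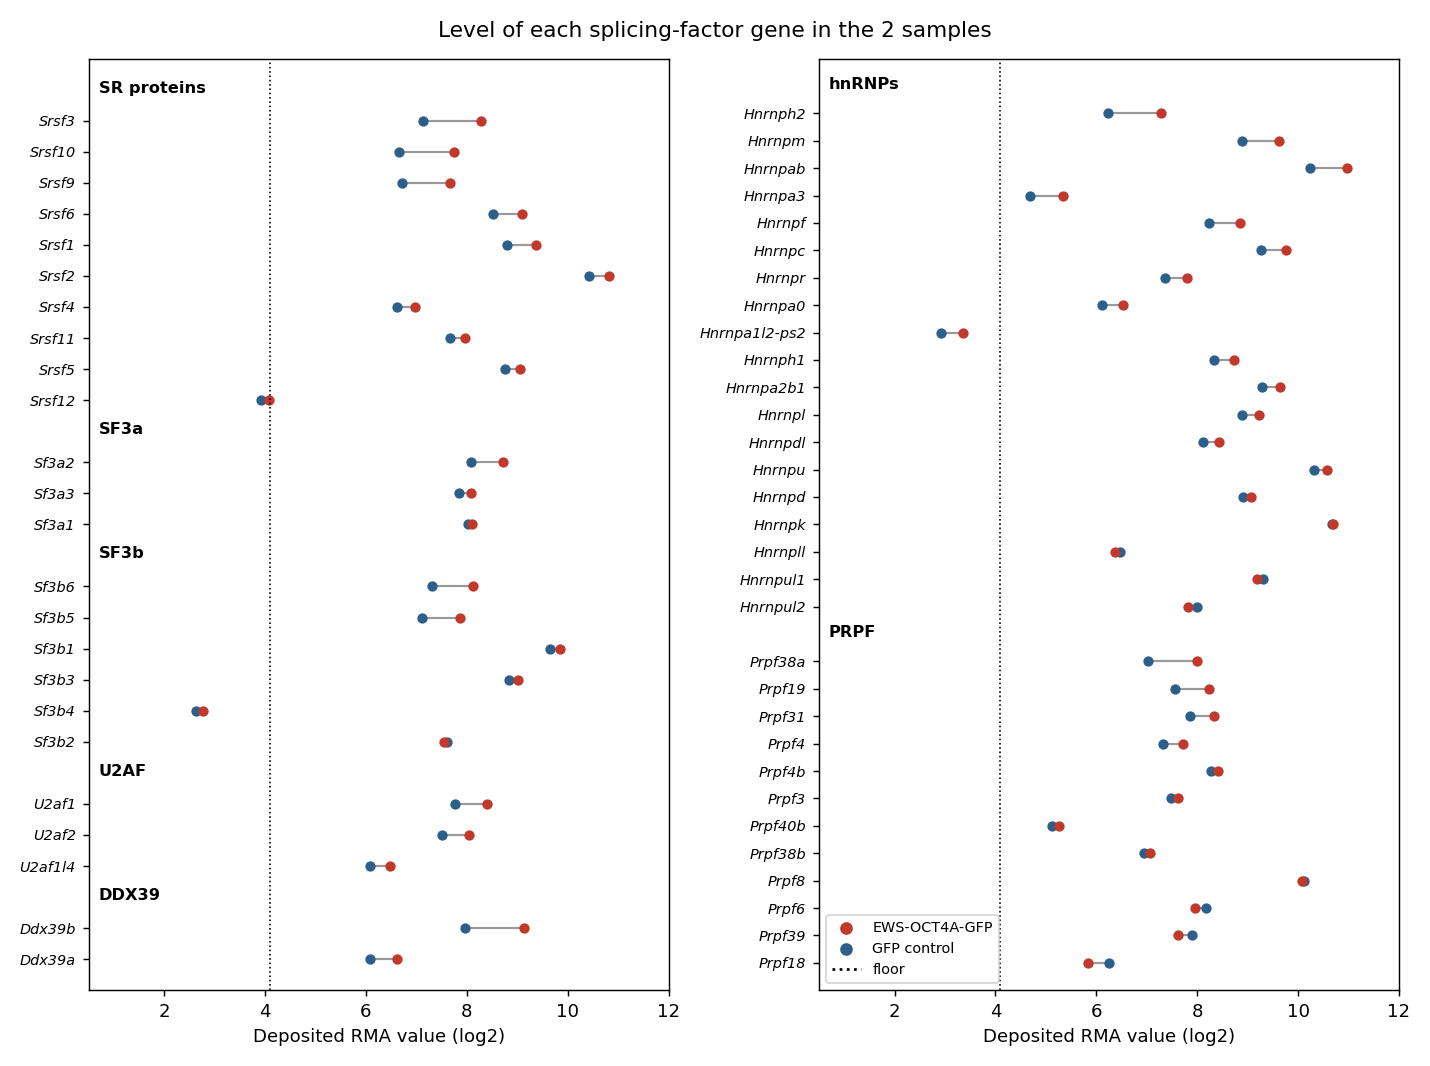
Deposited RMA value (log2, x axis) of each of the 55 splicing genes (rows, by family and by falling difference) in the EWS-OCT4A-GFP sample (red) and the GFP control (blue), with 1 sample each and the floor of 4.10 dotted. Red points lie to the right of blue points for all 10 SR protein genes, whereas Hnrnpul2, Hnrnpul1, Hnrnpll, Sf3b2 and 4 Prpf genes have the blue point to the right.

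The upstream sequences of the 4 genes at least 2-fold higher and of Prpf39, the gene with the lowest difference among those with a window in the RefSeq promoter table, are shown because these genes stand at the ends of the range. Each run holds the 250 bases before the annotated start in RefSeq, build GRCm38.p6, 5′ to 3′ on the plus strand: chr17:29032410-29032659 for Srsf3, chr4:135855821-135856070 for Srsf10, chrX:134600929-134601178 for Hnrnph2, chr17:35241496-35241745 for Ddx39b and chr12:65036084-65036333 for Prpf39. Capitals mark matches on either strand to the searched letters CACGTG, known as an E-box, to the CCAAT box, to the GC box GGGCGG, to the TATA box TATAAA, and to CCGGAA, the core that ETS factors bind.
Srsf3: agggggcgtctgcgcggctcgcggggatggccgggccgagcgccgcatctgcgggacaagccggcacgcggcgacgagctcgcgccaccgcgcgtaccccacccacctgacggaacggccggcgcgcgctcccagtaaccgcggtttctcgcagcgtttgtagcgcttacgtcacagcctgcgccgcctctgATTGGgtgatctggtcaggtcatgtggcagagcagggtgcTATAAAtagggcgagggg
Srsf10: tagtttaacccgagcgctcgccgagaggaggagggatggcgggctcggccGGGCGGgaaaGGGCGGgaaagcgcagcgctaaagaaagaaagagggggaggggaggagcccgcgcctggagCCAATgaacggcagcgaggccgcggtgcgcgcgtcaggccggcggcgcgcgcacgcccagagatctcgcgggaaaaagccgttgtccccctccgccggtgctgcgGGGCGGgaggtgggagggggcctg
Hnrnph2: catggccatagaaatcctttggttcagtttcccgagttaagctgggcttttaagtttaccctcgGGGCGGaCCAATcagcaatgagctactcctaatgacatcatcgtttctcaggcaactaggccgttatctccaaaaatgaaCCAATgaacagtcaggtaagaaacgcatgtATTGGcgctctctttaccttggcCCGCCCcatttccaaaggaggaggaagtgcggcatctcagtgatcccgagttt
Ddx39b: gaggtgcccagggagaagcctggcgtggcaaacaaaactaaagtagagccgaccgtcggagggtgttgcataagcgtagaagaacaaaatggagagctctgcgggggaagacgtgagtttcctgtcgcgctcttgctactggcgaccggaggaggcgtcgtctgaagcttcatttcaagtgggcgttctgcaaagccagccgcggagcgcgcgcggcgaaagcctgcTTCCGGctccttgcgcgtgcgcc
Prpf39: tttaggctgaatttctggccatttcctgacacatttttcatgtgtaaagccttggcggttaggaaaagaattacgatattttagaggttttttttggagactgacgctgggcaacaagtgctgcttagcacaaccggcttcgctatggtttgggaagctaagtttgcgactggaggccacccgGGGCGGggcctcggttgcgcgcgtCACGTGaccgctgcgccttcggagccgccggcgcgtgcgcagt

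The printed run of Srsf3 holds 1 TATAAA and 1 CCAAT box, that of Srsf10 holds 3 GC boxes and 1 CCAAT box, and that of Hnrnph2 holds 3 CCAAT boxes and 2 GC boxes. The run of Ddx39b holds 1 CCGGAA, and that of Prpf39 holds 1 E-box and 1 GC box.

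Of the 55 genes, 48 had a promoter window in that table, from 250 bases before to 50 after a start, with 65 windows in all. The CCGGAA letters, searched after the data were seen, stood in a window of 25 of the 48 genes (52.1%), beside 29.0% of the 10530 array genes that reach the floor and have a window. The CCAAT letters stood in 54.2% beside 42.1%, GGGCGG in 66.7% beside 66.3%, CACGTG in 16.7% beside 11.7%, and TATAAA in 12.5% beside 9.07%. None of these strings lies within another, neighbouring matches can share end bases, and a gene with several windows counted when any held a match. The windows also had more CpG dinucleotides, with a median of 27 per window beside 19 for genes at or above the floor, at a median GC content of 61.0% beside 60.3%. The median difference was 0.37 for the 25 genes with CCGGAA and 0.40 for the 21 without it. For the CCAAT letters the medians were 0.43 for 25 genes with them and 0.30 for 21 without. A match describes the letters and not a bound site.

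All 9 SR protein genes at or above the floor read higher in the EWS-OCT4A-GFP sample, beside 51.2% of all genes. Their median difference was 0.57, with a range from 0.30 to 1.14. Srsf3 (probe set 17335459), which encodes the smallest SR protein, a splicing regulator that also links mRNA to export, read 8.29 in the fusion line and 7.14 in the control line. That is a difference of 1.14, or 2.21-fold. Srsf10 (17419940), whose product turns into a splicing repressor when it loses its phosphates, read 7.75 and 6.66, a difference of 1.08 or 2.12-fold. Srsf9 (17441122) read 7.67 and 6.72, a difference of 0.95 that falls just short of 2-fold. In the order of differences within the family the next gene was Srsf6.

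Srsf6 (17379128) read 9.10 and 8.51, a difference of 0.59 or 1.51-fold. Srsf1 (17254916), the archetype of the family, read 9.37 and 8.80, a difference of 0.57 or 1.49-fold. These genes lie just inside and just outside the 1.5-fold size, so the boundary between them carries no meaning. Srsf2 (17272530), which encodes the nuclear speckle protein SC35, read 10.81 and 10.43, a difference of 0.38. The remaining genes, Srsf4, Srsf11 and Srsf5, differed by 0.35, 0.30 and 0.30. Srsf12 lay just under the floor, at 4.08 and 3.92.

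The 18 hnRNP genes at or above the floor had a median difference of 0.38. Of these, 15 were above 0 (83.3%, beside 51.2% of all genes) and 3 below. Of the genes of the G-run binding proteins H and F, Hnrnph2 and Hnrnpf were among the higher ones, and Hnrnph1 lay near the family median. Hnrnph2 (17537722) read 7.28 and 6.23, a difference of 1.04 or 2.06-fold, and was the 1 hnRNP gene at 2-fold. Its paralog Hnrnph1 (17249176) read 8.72 and 8.33, a difference of 0.39. Hnrnpf (17462191) read 8.84 and 8.24, a difference of 0.60. The 3 genes thus shared a direction, and a probe set shared by Rufy2 and Hnrnph3 differed by 0.06.

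Hnrnpm (17343580), which encodes a regulator of alternative exons, read 9.63 and 8.88, a difference of 0.75 or 1.68-fold. Hnrnpab (17262478), a member of the A/B group, read 10.97 and 10.24, a difference of 0.73 or 1.66-fold. Hnrnpa3 (17372140) read 5.33 and 4.68, a difference of 0.65. Within the A/B and D groups the others were smaller: Hnrnpa0 differed by 0.41, Hnrnpa2b1 by 0.37, Hnrnpdl by 0.31 and Hnrnpd by 0.17. Hnrnpc (17306189), whose product binds runs of uridine, read 9.76 and 9.26, a difference of 0.50, Hnrnpr differed by 0.43 and Hnrnpl, which binds CA repeats, by 0.34.

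The genes of the hnRNP U group lay on both sides of 0. Hnrnpu (17230282), which encodes a chromatin-associated scaffold protein, read 10.57 and 10.32, a difference of 0.25. Hnrnpul1 (17488013) read 9.19 and 9.31, a difference of -0.12, and Hnrnpul2 (17357219) read 7.82 and 7.99, a difference of -0.17. Hnrnpll, known for regulating the splicing of the lymphocyte receptor CD45, differed by -0.09. Hnrnpk (17479892), which encodes a poly(C)-binding protein, was level at 10.70 and 10.68. Its difference of 0.02 turned to -0.01 with median centring, -0.08 with quantile normalization and -0.13 with loess centring, so it has no settled direction.

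**Figure D2:**
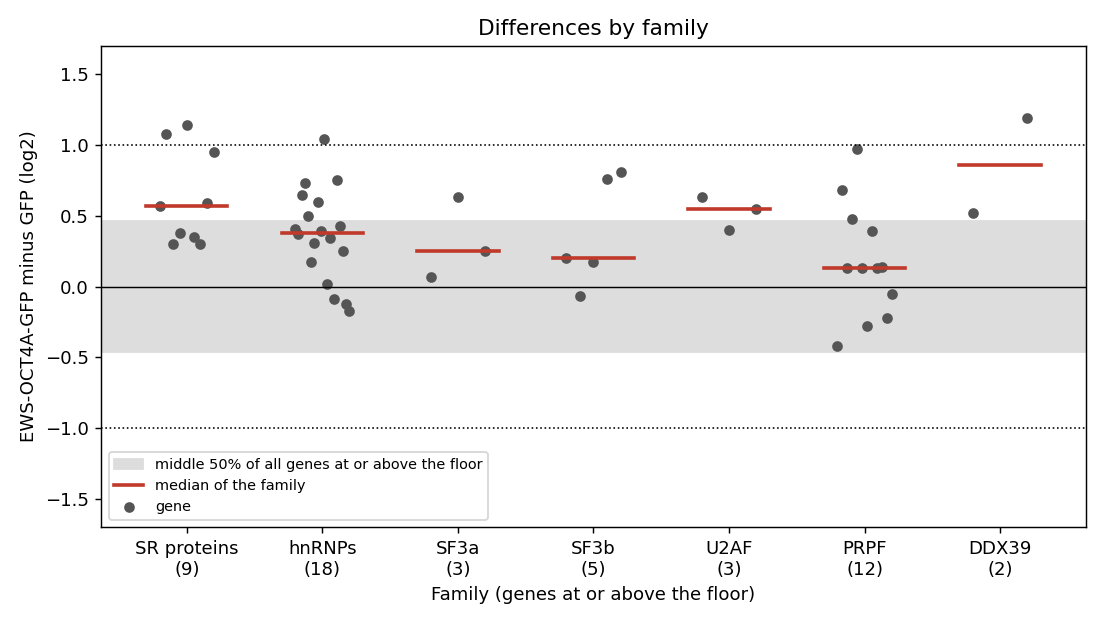
Difference between the samples (EWS-OCT4A-GFP minus GFP, log2, y axis) of each gene at or above the floor, by family, with the family median (red) and the middle 50% of all 13516 genes at or above the floor (grey, -0.46 to 0.46). The medians run from 0.13 for the Prpf genes to 0.86 for the 2 Ddx39 genes, and no gene reaches the lower dotted line at 2-fold lower.

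All 3 U2af genes read higher, as did 51.2% of all genes at or above the floor. U2af1 (17343251), whose product contacts the AG at the end of the intron, read 8.39 and 7.76, a difference of 0.63 or 1.55-fold. U2af2 (17473477), the large subunit that binds the polypyrimidine tract, read 8.04 and 7.50, a difference of 0.55 or 1.46-fold. The subunits of the heterodimer therefore differed by similar amounts. U2af1l4, which encodes a paralog of the small subunit, read 6.47 and 6.08, a difference of 0.40.

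Among the genes of SF3a and SF3b, 7 of 8 at or above the floor were above 0 (87.5%, beside 51.2% of all genes). The median of the 8 was 0.22, and they fell into larger and smaller differences. Sf3b6 (17273806), whose product lies at the branch-point adenosine, read 8.12 and 7.30, a difference of 0.81 or 1.76-fold. Sf3b5 (17231690), which encodes a small subunit, read 7.87 and 7.12, a difference of 0.76 or 1.69-fold. Sf3a2 (17235443) read 8.72 and 8.09, a difference of 0.63 or 1.55-fold. The scaffold subunit Sf3b1 (17223200), often mutated in myeloid neoplasms, read 9.85 and 9.65, a difference of 0.20. Sf3b3 differed by 0.17, Sf3a3 by 0.25, Sf3a1 by 0.07 and Sf3b2 by -0.07, and the difference of Sf3a1 turned to -0.03 with loess centring. These readings thus had no common size, but whether the subunits differ from each other was not tested. Other probe sets gave other values. A second Sf3b2 probe set, under the floor, differed by 0.60, and a probe set shared by Plekhj1 and Sf3a2 by -0.21.

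The 12 Prpf genes spread to both sides of 0, with 8 above (66.7%, beside 51.2% of all genes) and 4 below. Their median was 0.13. Prpf38a (17428066), whose product joins the spliceosome before activation, read 8.0 and 7.02, a difference of 0.97 or 1.96-fold, whereas its paralog Prpf38b differed by 0.13. Prpf19 (17357611), the ubiquitin ligase of the complex named after it, read 8.24 and 7.56, a difference of 0.68 or 1.60-fold. Of the proteins of the U4/U6 snRNP, Prpf31 (17473177) read 8.34 and 7.85, a difference of 0.48, Prpf4 differed by 0.39 and Prpf3 by 0.13. The kinase gene Prpf4b differed by 0.14 and Prpf40b by 0.13.

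The lower Prpf genes had differing roles. Prpf18 (17381283), a factor of the second catalytic step, read 5.83 and 6.25, a difference of -0.42, the lowest of the 52 genes. Prpf39, which encodes a protein associated with the U1 snRNP, read 7.62 and 7.89, a difference of -0.28. Prpf6, the bridge of the tri-snRNP, read 7.96 and 8.18, a difference of -0.22. Prpf8 (17252922), which cradles the catalytic centre, was level at 10.07 and 10.12, a difference of -0.05. None of these differences reached 1.5-fold.

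Both helicase genes of the DDX39 group, which act in early spliceosome assembly and in mRNA export, read higher (51.2% of all genes did). Ddx39b (17337046), which encodes UAP56, read 9.14 in the fusion line and 7.96 in the control line, a difference of 1.19 or 2.28-fold. Ddx39a (17502976) read 6.62 and 6.09, a difference of 0.52 or 1.44-fold. The value of Ddx39b rests on the choice of probe set. A different Ddx39b probe set read 6.72 and 5.88, a difference of 0.84, and another read 3.25 and 4.10, a difference of -0.85. The fusion-line value of that last probe set lies under the floor and its control value at it, so the size of its difference is uncertain. The mean over its 3 probe sets was 0.39.

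Several probe sets for a gene give the only repeated readings within these arrays, and 12 of the 55 genes had them. In 9 of the 12 all probe sets pointed the same way, and in 3, Ddx39b, Hnrnpul1 and Sf3b2, they did not. The distance between the lowest and the highest difference of a gene had a median of 0.28 and reached 2.04 in Ddx39b. The lowest Ddx39b difference comes from a probe set with its fusion-line value under the floor and its control value at it. All 5 probe sets of Hnrnpf were above 0, from 0.36 to 0.60, and those of Srsf1 were at 0.57 and 0.65. The probe sets of Hnrnph2 were at 1.04 and 0.65, and those of Hnrnpu at 0.25 and 0.64. Hnrnpul1 had a second probe set at 5.29 and 4.86, a difference of 0.44 against -0.12. Sf3b2 had a second one under the floor at a difference of 0.60 against -0.07. A median distance of 0.28 is close in size to many of the differences above, and probe sets of hnRNP and SR protein genes can share sequence with processed pseudogenes.

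**Figure D3:**
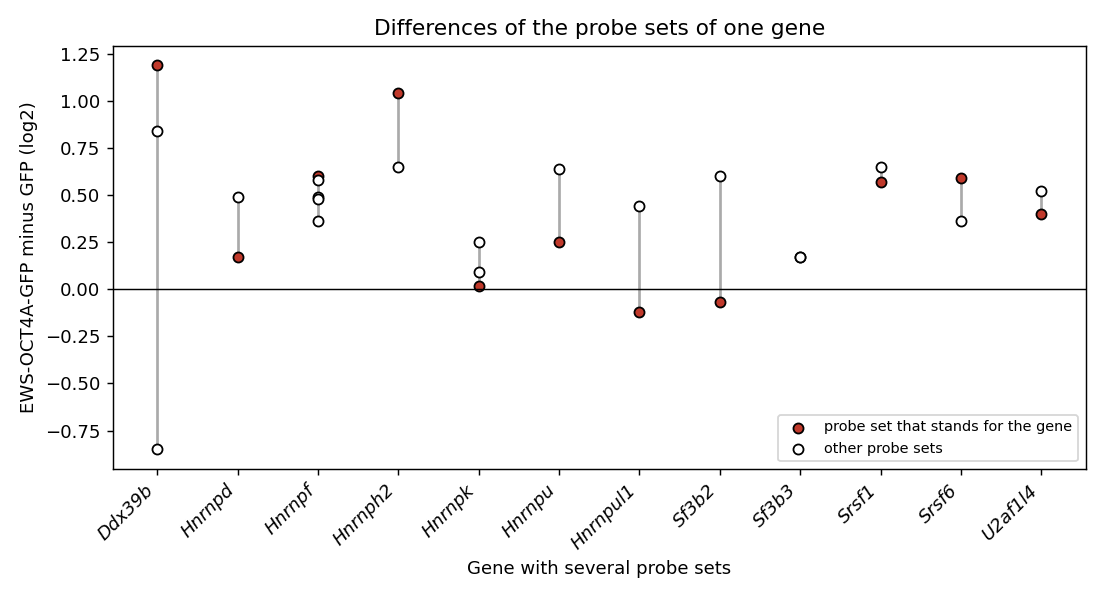
Difference between the samples (EWS-OCT4A-GFP minus GFP, log2, y axis) of every probe set of the 12 genes with several (x axis), the one that stands for the gene in red. The 5 probe sets of Hnrnpf lie between 0.36 and 0.60, whereas those of Ddx39b run from -0.85 (fusion-line value under the floor) to 1.19. The points of Sf3b3 coincide at 0.17.

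The differences went with the span of the gene, a pattern noticed after the data were seen. In RefSeq all 55 genes were found by gene ID. The 26 genes at or above the floor with the shorter spans, up to 14.4 kb, had a median difference of 0.58, and all 26 were above 0, with 13 of them at least 1.5-fold higher. The 26 with the longer spans had a median of 0.17, with 18 above 0 (69.2%) and 3 at least 1.5-fold higher. Over 13441 genes at or above the floor, parted at their own median span of 20.6 kb, the medians were 0.08 for the shorter and -0.03 for the longer. Of those shorter and longer genes 54.6% and 47.7% were above 0, and 21.0% and 19.1% were at least 1.5-fold higher. Spearman's rho between difference and span was -0.50 over the 52 splicing genes and -0.11 over all those genes. Over 6200 genes with a mean level of at least 6 it was -0.16. Of the shorter and longer of these, parted at 25.4 kb, 57.0% and 47.0% were above 0, and 24.6% and 18.5% were at least 1.5-fold higher. These points share their 2 arrays and are not independent, and how span, transcript length and level part in this was not tested. The 3 longer genes at 1.5-fold were Hnrnpm, Hnrnpf and Prpf38a, and Prpf6 had the longest span of all at 54.3 kb.

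**Figure D4:**
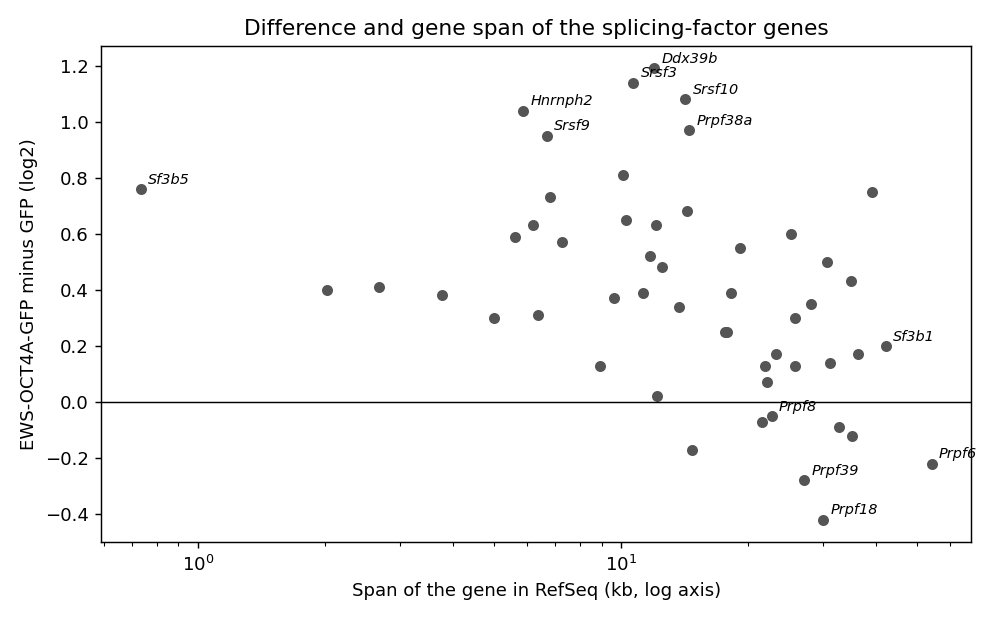
Difference between the samples (EWS-OCT4A-GFP minus GFP, log2, y axis) against the span of the gene in RefSeq (kb, log axis) for the 52 splicing genes at or above the floor, 1 point for each gene. All 8 genes below 0 lie among the 26 with spans above 14.4 kb, and Sf3b5 has the shortest span at 0.734 kb.

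A pair of the splicing genes hosts a microRNA with a probe set of its own. Mir7-1 lies within Hnrnpk and Mir697 within Sf3a3 in RefSeq (GRCm38.p6). The mature sequences are shown because they identify what the hosted loci encode, with the seed, bases 2 to 8, in capitals. They lie at chr13:58392841-58392863 and chr13:58392800-58392821 on the minus strand and at chr4:124731768-124731788 on the plus strand.
mmu-miR-7a-5p: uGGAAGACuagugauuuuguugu
mmu-miR-7a-1-3p: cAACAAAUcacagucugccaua
mmu-miR-697: aACAUCCUgguccuguggaga
The Mir7-1 probe set (17293163) read 6.29 in the fusion line and 5.08 in the control line, a difference of 1.22 or 2.32-fold, while Hnrnpk itself was level. The Mir697 probe set (17418304) read 4.47 and 3.75, a difference of 0.72, beside 0.25 for Sf3a3. Its control value lies under the floor and its fusion-line value just above it, so the size of this difference is uncertain. The values are those of probe sets on total RNA amplified with random primers, so precursor, intron and mature forms cannot be told apart. The seeds of the 3 mature forms differ from each other.

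The wider splicing machinery was read through 9 lists of other genes, which held 152 symbols, with Nhp2l1 and Snu13 for the same gene. Of these symbols, 18, Nhp2l1 among them, were on no probe set as its only symbol and were not analysed here. Among the 133 that reached the floor, 96 were above 0 (72.2%, beside 51.2% of all genes), with a median of 0.28. By 1.5-fold or more, 38 were higher (28.6%, beside 20.0%) and 10 lower (7.52%, beside 20.6%). The Sm and LSm proteins, which form the rings around the small nuclear RNAs, were the highest list. Of 13 genes, 12 were higher by 1.5-fold or more (92.3%, beside 20.0% of all genes) and 4 by 2-fold or more (30.8%, beside 9.31%), with a median of 0.78. Snrpd2 read 5.58 and 4.13, a difference of 1.45, Snrpe 8.21 and 6.86, a difference of 1.35, and Snrpd1 7.84 and 6.59, a difference of 1.25. The control value of Snrpd2 lies just above the floor, so the size of its difference is uncertain. Snrpb was the exception to the direction at -0.07.

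The 15 other proteins of the U2 and U4/U6.U5 snRNPs had a median of 0.28, with 4 at least 1.5-fold higher (26.7%, near the 20.0% of all genes) and none 1.5-fold lower. Snrpa1, a U2 protein, was 2.14-fold higher, Snu13, which binds the kink-turn of U4, by 1.03 and Phf5a, a small SF3b subunit outside the symbol rule, by 0.94. The 20 genes of the Prp19 complex and the catalytic steps had a median of 0.40, with 7 at least 1.5-fold higher (35.0%, beside the same 20.0%), led by Plrg1 at 1.08, Ctnnbl1 at 0.79 and Bcas2 at 0.74. Above 0 were 16 of the 20 (80.0%, beside 51.2% of all genes), and 4 were below, with Syf2 at -0.46 and Slu7 at -0.45. Exon junction and export genes had a median of 0.32 over 13 genes, with 11 above 0 (84.6%, beside 51.2%) and 2 below. Rbm8a differed by 0.59, Chtop by 0.46 and Thoc5 by 0.41. The 5 U1 genes had a median of 0.23, with Luc7l at 0.51, Luc7l2 at 0.37 and Luc7l3 at 0.23. Arginine methyltransferases and their partners, which modify Sm proteins and hnRNPs, had a median of 0.60 over 7 genes, with Clns1a at 0.89, Prmt1 at 0.86 and Prmt5 at 0.67. Of the 7, 5 were above 0 (71.4%, beside 51.2%) and 2 below, Prmt6 at -0.32 and Carm1 at -0.15.

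Other lists lay near 0. The 8 proteins of the minor spliceosome, which removes a rare class of introns, had a median of -0.16, with Snrnp25 at 0.92, Zcrb1 at -0.73 and Zmat5 at 0.41. The 13 genes of SR protein kinases, transport and partners had a median of 0.00. Of them, 6 were above 0 (46.2%, beside 51.2% of all genes) and 7 below. The kinase genes Dyrk1a (8.07 and 8.99) and Srpk2 (5.72 and 6.57) differed by -0.91 and -0.86, and Pnisr by 0.73.

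RNA-binding regulators outside the symbol rule formed the last list, in which some genes, such as Ptbp1, Rbmx, Pcbp2 and Syncrip, also encode hnRNPs under other names. The list had a median of 0.16 over 39 genes, with 3 higher (7.69%) and 6 lower (15.4%) by 2-fold or more. Those shares are near the 9.31% and 11.9% of all genes, so at 2-fold the list did not differ much from the background. Above 0 were 26 genes (66.7%, beside 51.2% of all genes, whose median was 0.03). The sizes below are those of single genes. Mbnl3, a muscleblind gene, read 4.47 in the fusion line and 9.46 in the control line, a difference of -4.99, and its relative Mbnl2 read 8.58 and 11.10, a difference of -2.52. The epithelial splicing regulators Esrp2 and Esrp1 read 5.21 and 8.73, and 3.68 and 6.92, differences of -3.52 and -3.24. Ptbp3, a polypyrimidine tract binding gene, differed by -1.81 and Rbmx by -1.03. In the other direction Nova1 read 6.08 and 3.97, Khdrbs3 6.52 and 4.50, and Ptbp2 7.75 and 6.62, differences of 2.11, 2.02 and 1.12. The control value of Nova1 and the fusion-line value of Esrp1 lie under the floor, so these genes passed it only through the sample where they are high and the size of their differences is uncertain. The fusion-line value of Mbnl3 lies just above the floor, so the size of its difference is uncertain too. Ptbp1 differed by 0.39, so the PTB genes went in both directions. Mbnl3, Mbnl2 and the Esrp genes were high in the sample in which the trophectoderm markers read higher, and the part of that marker shift in these values was not tested. Beyond the first 3 by size, the genes in this paragraph were named after their values were seen.

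**Figure D5:**
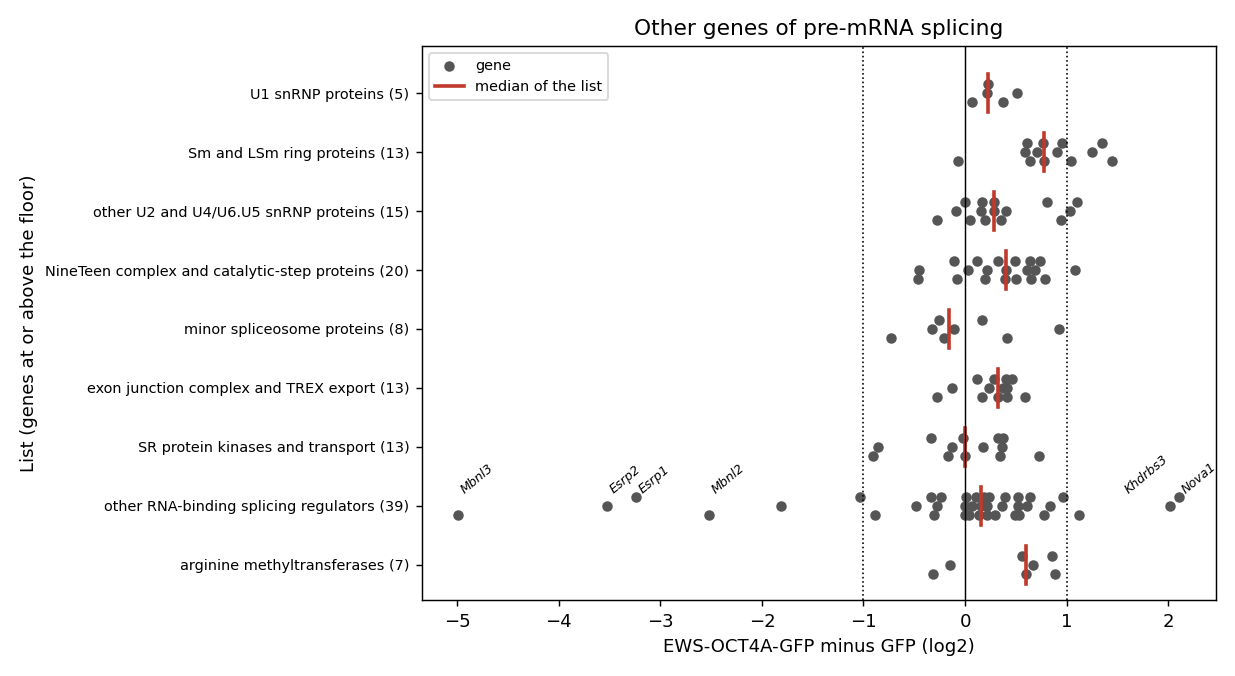
Difference between the samples (EWS-OCT4A-GFP minus GFP, log2, x axis) of 133 other genes of pre-mRNA splicing at or above the floor, by list (y axis, number of genes in brackets), with list medians in red and 2-fold dotted. The Sm and LSm list has the highest median at 0.78. The list of other RNA-binding regulators runs from -4.99 (Mbnl3, fusion-line value just above the floor) to 2.11 (Nova1, control value under it).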

How the data were processed

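Expression was measured in 2 samples, 1 for each group, and the authors deposited 1 table of log2 values for 33793 probe sets. The submitters' processing notes name RMA and Affymetrix Expression Console 1.1. A log2 scale was inferred from RMA and from the range of 0.618 to 13.0, since the table names no log base. RMA quantile-normalizes the arrays, which hides a shift shared by most transcripts, and compresses differences of low values. The design text speaks of duplicates, and whether a column is 1 array or a mean of several is not stated there. Precision is limited by the number of arrays.

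The platform annotation named the probe sets: 23521 had 1 symbol, 1814 several and 8458 none. Differences, counts past 1.5-fold and 2-fold and medians were set beside the same values over all genes at or above the floor, with no test. Named in full were, for each family, up to 4 genes with the largest difference, the gene with the highest mean and those past 1.5-fold, and for each list up to 3 genes with the largest difference. The genes and lists were chosen with earlier results of these data known. Alternatives covered the floor, the normalization (loess span 0.3), the probe set rule and the naming. The procedure was checked on simulated data. Protein sequence features were planned and not analysed here. Tools were Python 3.11.15 with pandas 2.3.3, numpy 2.4.6 and statsmodels 0.14.6.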

Additional observations from a re-analysis of the deposited data

How the results depend on the processing

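No paired analysis was possible because there was 1 sample per group, and no replicate could be left out. Under 9 other settings of floor, normalization, probe set rule and naming, and under a minimum mean level of 6 chosen after seeing the data, the count of genes above 0 ranged from 42 to 47 of 50 to 55 genes and no gene was 2-fold lower. With loess centring the median difference was 0.27 (all genes -0.04), 10 genes were at least 1.5-fold higher (19.2%, beside 17.2% of all genes) and 2 at least 2-fold. Srsf10 then stood at 0.99 and Hnrnph2 at 0.95. The mean over the probe sets of a gene left 2 genes at least 2-fold higher, as did the lowest-mean probe set, because Ddx39b and Hnrnph2 then read 0.39 and 0.85, or -0.85 and 0.65. With the lowest-mean probe set 1 gene, Ddx39b, was at least 1.5-fold lower, on a probe set with its fusion-line value under the floor. Signal over background is unknown here, which limits the genes near the floor.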

Other observations

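Probe sets that carry several gene symbols were left out by the rule, and 8 of them name a splicing gene beside others. A pair of them names Hnrnpa1, which encodes one of the most abundant hnRNPs, together with related pseudogenes and predicted genes. They read 11.16 in the fusion line and 10.18 in the control line, and 11.47 and 10.45, differences of 0.98 and 1.02, so which copy they report is uncertain. The probe set shared by Rufy2 and Hnrnph3 read 7.61 and 7.55, a difference of 0.06. That shared by Adgre5 and Ddx39a differed by 0.67, beside 0.52 for the Ddx39a probe set. That shared by Plekhj1 and Sf3a2 read 6.87 and 7.08, a difference of -0.21, beside 0.63 for Sf3a2. That shared by Rmi1 and Hnrnpk differed by -0.81, that of Gpr141 and Srsf10 by 0.59 and that of U2af1l4 and Igflr1, under the floor, by 0.18.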
